A study of Vitis vinifera and Vitis riparia and Vitis amurensis with 189 samples.

Results

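The comparison was between Cabernet Sauvignon buds on day 12 and on day 7 at room temperature. Its members were chosen by title, as the day 7 and day 12 libraries of this cultivar, and number 7 of the 189 libraries in the series and of the 58 from Cabernet Sauvignon. Day 7 had 4 libraries (replicates 1, 2, 3 and 5) and day 12 had 3 (replicates 1, 2 and 3). Cabernet Sauvignon is a black-berried wine cultivar of Vitis vinifera. Both groups carry the same genotype label and the tissue label of a dormant bud, and differ only in day. Their canes came from vines in a commercial vineyard, were cut to single nodes, and stood in cups of water with no other treatment named. The series follows wild and cultivated grapevines through deacclimation until budburst was seen, and the comparison asks what changed in the bud's RNA over the 5 days in its middle.

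A grapevine bud that has met its need for winter chilling loses cold hardiness when it is kept warm, a process called deacclimation. It then takes up water, swells, and opens at budbreak as the preformed shoot inside resumes growth. The labels give the day but no growth stage, so whether the day 12 buds had swollen cannot be read from them. The gene identifiers have the Vitvi form, and 0 of the 42394 matched the gene table used here, so genes carry no names or functions below and no sequence is shown. The labelled stage could not be checked against marker genes for the same reason. Identifiers are given for 4 genes. In whole buds, fewer cells of a type and less RNA per cell cannot be told apart.

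Gene counts summed to 6165447, 263961, 2586494 and 4819933 in day 7 replicates 1, 2, 3 and 5, and to 1162592, 6838068 and 3850958 in day 12 replicates 1, 2 and 3. Day 7 replicate 2 was the shallowest, and 60.6% of its records aligned to more than 1 place, against 8.35 to 13.3% in the other 6 libraries. A total of 3 counts in a library, taken here as the floor of detection for counting error only, was worth 11.4 CPM (counts per 1000000 gene counts) in that library and 0.439 to 2.58 CPM in the others. For the CPM of genes below, library sizes were scaled in addition, by 1.03 in day 7 replicate 2. Records that fell outside annotated genes made up 9.31 to 14.7% of all records on day 7. The lowest of these values is of replicate 2, whose records aligned to more than 1 place are part of that total and lower its share. Records outside genes made up 26.2, 13.2 and 28.2% in day 12 replicates 1, 2 and 3. Their means, 13.03% ± 2.50 (SD, n = 4) and 22.5% ± 8.16 (SD, n = 3), gave p = 0.229 in an exact two-sided permutation test. Day 7 replicates 3 and 5 were the most alike of any pair of that day. Their biological coefficient of variation was 0.110, just above the limit of 0.09 under which pairs were counted as 1 sample. Genes that separate the cultivars gave a Riesling share of at most 1.61% on day 7 and 0.513% on day 12, so all 7 libraries matched their label.

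Between day 7 and day 12, 8326 of 21035 genes tested changed, or 39.6% (edgeR's quasi-likelihood test, Benjamini-Hochberg adjusted p under 0.05). Of these, 4638 rose (22.0% of genes tested) and 3688 fell (17.5%). The median log2 fold change over all genes tested was 0.07. It was 1.96 among the genes that rose and -1.35 among those that fell. The labels do not say that replicates came from separate vines, so these p-values measure the spread between libraries only. With the only day 12 library whose records outside genes were at most 25%, replicate 2, and the other libraries under that limit, the count was 3367. The lone library was then assumed to vary like the other days, and 3336 of those genes were also among the 8326. With that share as a covariate and all libraries kept, 8050 genes passed.

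Large rises outnumbered large falls. At least 4-fold changes were found for 2276 genes that rose and 933 that fell, and at least 16-fold changes for 929 and 114. Many of these genes were close to 0 on one day, where the fitted fold depends on the fit's prior count. With more than 10 counts on each day, 225 genes rose and 24 fell by at least 16-fold. In the libraries themselves, every day 12 value lay above every day 7 value for 4687 genes (22.3% of those tested) and below every one for 3713 (17.7%). At the other end, the change of 4507 genes (21.4%) lay within 2-fold by 2 standard errors.

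**Figure D1:**
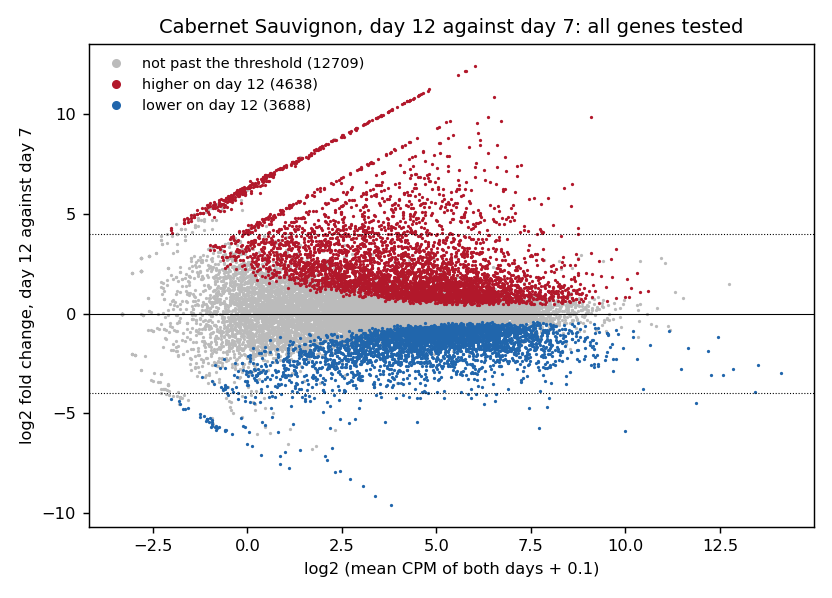
Each point is a gene tested, with the log2 of its mean CPM over both days plus 0.1 on the horizontal axis and its log2 fold change, day 12 against day 7, on the vertical axis. Red and blue points are the 4638 genes that rose and the 3688 that fell, and the dotted lines mark 16-fold; 929 red points and 114 blue points lie beyond them, and the straight red streaks at the left are genes with few counts on day 7.

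The gene that rose most under the naming rule was Vitvi14g01929. Its level was 0.335, 3.69, 2.11 and 1.34 CPM in day 7 replicates 1, 2, 3 and 5, from 14 counts in all. It was 1042, 617 and 1604 CPM in day 12 replicates 1, 2 and 3. The groups did not overlap, which the naming rule requires of each named gene. The lowest day 12 library was far above the highest of day 7. The log2 fold change was 9.84 ± 0.85 (SE; edgeR, adjusted p = 4.82e-10). Its level was 47.3, 59.3 and 79.4 CPM in the 3 libraries of day 9 and 191 and 479 CPM in the 2 of day 10, so it lay between the levels of days 7 and 12 on both days. After day 12 it did not hold steady. It was 193, 341 and 1520 CPM in day 13 replicates 1, 2 and 3. On day 15 it was 268, 474 and 386 CPM, below every day 12 library, and on day 17 it was 803 to 1752 CPM. In Riesling, a white-berried cultivar of the same species sampled in the same way, its log2 fold change over the same days was 6.55 ± 1.03 (SE; edgeR, adjusted p = 5.91e-05).

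The next in size was Vitvi07g00352. On day 7 it stood at 0.671, 7.38, 0.423 and 1.11 CPM in replicates 1, 2, 3 and 5. The value in replicate 2 came from 2 counts and lies under the floor of that library. On day 12 it stood at 277, 189 and 200 CPM in replicates 1, 2 and 3, again with no overlap. Its log2 fold change was 7.83 ± 0.75 (SE; edgeR, adjusted p = 2.62e-09), and in Riesling 5.06 ± 0.74 (SE; adjusted p = 3.99e-05). It had reached 13.1 to 95.0 CPM by day 9 and 52.7 and 192 CPM by day 10, and ranged from 258 to 330 CPM on day 17.

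Of the genes that fell, Vitvi19g02038 had the largest change under the rule. Its level was 183, 446, 3878 and 3446 CPM in day 7 replicates 1, 2, 3 and 5, and 29.7, 21.8 and 47.6 CPM in day 12 replicates 1, 2 and 3. The groups did not overlap, but day 7 was itself split, with replicates 3 and 5, the most alike pair, far above replicates 1 and 2. The log2 fold change was -5.91 ± 1.08 (SE; edgeR, adjusted p = 5.97e-05). The gene had risen from a mean of 4.35 CPM on day 0 to 107 CPM on day 1, a log2 fold change of 4.50 (edgeR, adjusted p = 0.00196). It stood at 34.2, 65.7 and 10.95 CPM in day 13 replicates 1, 2 and 3, and at 0, 0.904 and 0 CPM in those of day 17, with 12 counts in all on day 17. In Riesling it changed by -1.82 ± 0.62 between days 7 and 12 (SE; edgeR, adjusted p = 0.0349).

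Vitvi18g02423 also fell. Its level was 258, 225, 611 and 547 CPM in day 7 replicates 1, 2, 3 and 5, and 11.2, 7.72 and 5.46 CPM in day 12 replicates 1, 2 and 3. Every day 12 library lay far below every day 7 library. The log2 fold change was -5.72 ± 0.98 (SE; edgeR, adjusted p = 2.40e-05), and in Riesling -3.41 ± 0.69 (SE; adjusted p = 0.000794). On day 9 its libraries spread from 25.2 to 519 CPM, which spans both groups, and on day 10 they stood at 10.9 and 27.0 CPM. Between days 0 and 1 it fell by 2.36 on the log2 scale (edgeR, adjusted p = 0.0320), from a mean of 490 CPM to one of 98.8 CPM. The change of none of the 4 genes differed between the cultivars past the threshold (edgeR interaction, adjusted p = 0.146, 0.163, 0.192 and 0.191 in the order given).

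**Figure D2:**
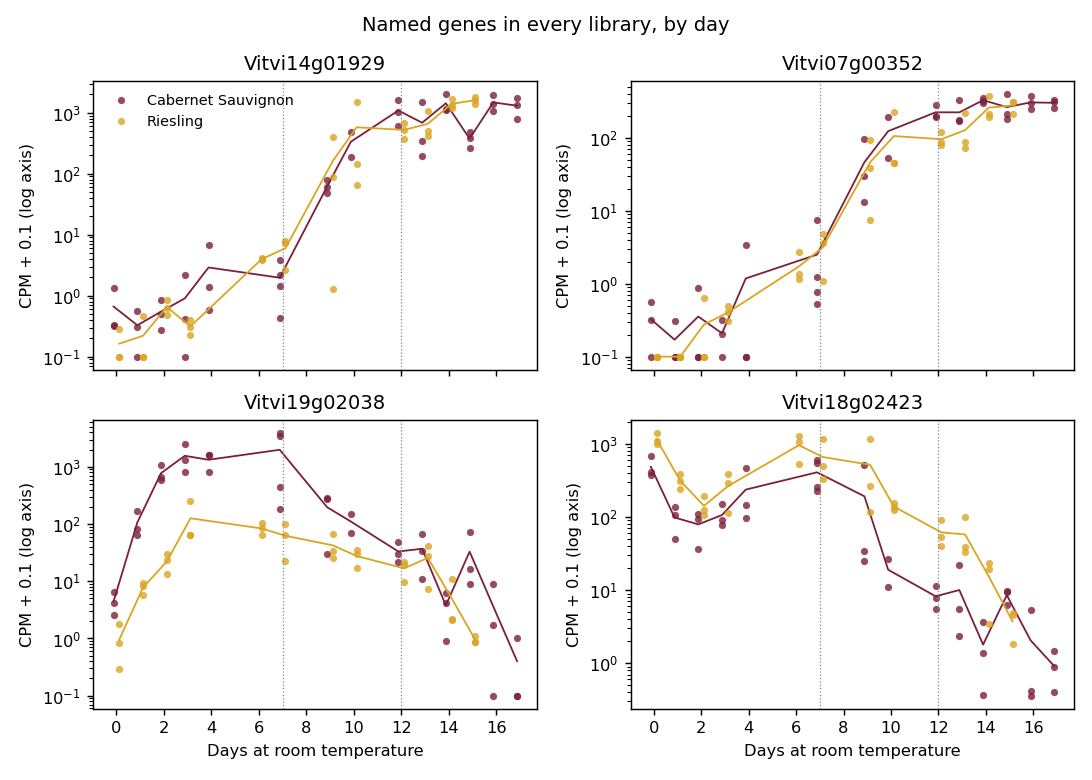
Each panel shows a named gene, with days at room temperature on the horizontal axis and CPM plus 0.1 on a log vertical axis; each point is a library, lines join the day means, and dotted lines mark days 7 and 12. In Cabernet Sauvignon the upper genes climb from a mean of 1.87 and 2.40 CPM on day 7 to 1088 and 222 CPM on day 12, and the lower genes drop from 1988 and 411 CPM to 33.0 and 8.14 CPM.

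A group of 207 genes was nearly silent on day 7 and present in every day 12 library, with at most 10 counts over the 4 day 7 libraries and at least 10 CPM in each of the 3 day 12 libraries. Of these, 36 had 0 counts on day 7. All 207 were among the genes called, which the rule itself makes likely. Their median level was 0.246 CPM on day 0 and 0.305 CPM on day 4. It was 2.67 CPM on day 9, 10.1 CPM on day 10, 28.9 CPM on day 12 and 42.6 CPM on day 17. By day 9, 171 of them had a mean of at least 1 CPM, and by day 10, 204. In Riesling, 195 of the 206 that were tested rose over the same days and 0 fell (edgeR). Genes near 0 on the early days pass the expression filter through days on which they are higher, so nothing is read from that count. No gene met the same rule in the other direction, and all 18 genes that fell by at least 64-fold had at most 10 counts on one of the days. The shallow day 7 replicate 2 limits that reverse count, since 10 CPM there is under its floor.

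The days between gave their own counts. Day 9 against day 7 had 475 genes past the threshold, or 2.26% of those tested, with 418 higher (1.99%) and 57 lower (0.271%; edgeR, adjusted p under 0.05). Day 10, with 2 libraries, had 2678 against day 7 (12.7%), with 1882 higher (8.95%) and 796 lower (3.78%). Against day 9, day 12 had 2026 genes higher (9.63%) and 1333 lower (6.34%). Against day 10 it had 46 higher (0.219%) and 17 lower (0.0808%). These comparisons share libraries, so their lists were not set against each other. The day 9 libraries differed among themselves. Over the genes that rose by day 12, the median change from the day 7 mean, on the log2(CPM + 1) scale, was 0.11, 0.49 and 0.95 in day 9 replicates 1, 2 and 3. It was 0.82 and 0.97 in day 10 replicates 2 and 3, and 1.51, 1.52 and 1.83 in day 12 replicates 1, 2 and 3. Over the genes that fell, the same medians were -0.13, -0.39 and -0.75 on day 9, -0.67 and -0.62 on day 10, and -1.20, -1.09 and -1.38 on day 12. The share of records outside genes was 26.2, 13.2 and 28.2% in these day 12 libraries, in the same order, and replicate 3 had both the highest share and the largest medians. The genes were chosen on these libraries, and the part of that share in the medians was not tested.

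The genes that rose held 11.7, 10.2, 9.49 and 9.47% of gene counts in day 7 replicates 1, 2, 3 and 5, and 31.6, 30.7 and 35.6% in day 12 replicates 1, 2 and 3. Those that fell held 40.8, 45.4, 47.9 and 47.2% on day 7 and 17.5, 18.1 and 12.8% on day 12. The genes were chosen on these days, so the 7 values describe the size of the exchange and test nothing. On days that did not choose them, the genes that rose held a mean of 10.5% ± 0.614 (SD, n = 3) on day 0 and 38.2% ± 3.43 (SD, n = 3) on day 17. The genes that fell held 45.0% ± 1.48 on day 0 and 10.6% ± 1.76 on day 17 (SD, n = 3 each). From day 0 to day 7 the means stayed between 10.2 and 12.1% for the first group and between 39.4 and 45.3% for the second. Day 15 stood apart from its neighbours, with 26.5% ± 2.40 and 19.1% ± 1.09 (SD, n = 3). In Riesling the same genes went from 12.3% ± 1.93 and 39.9% ± 4.50 on day 7 to 25.8% ± 0.782 and 21.6% ± 0.655 on day 12 (SD, n = 3 each).

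**Figure D3:**
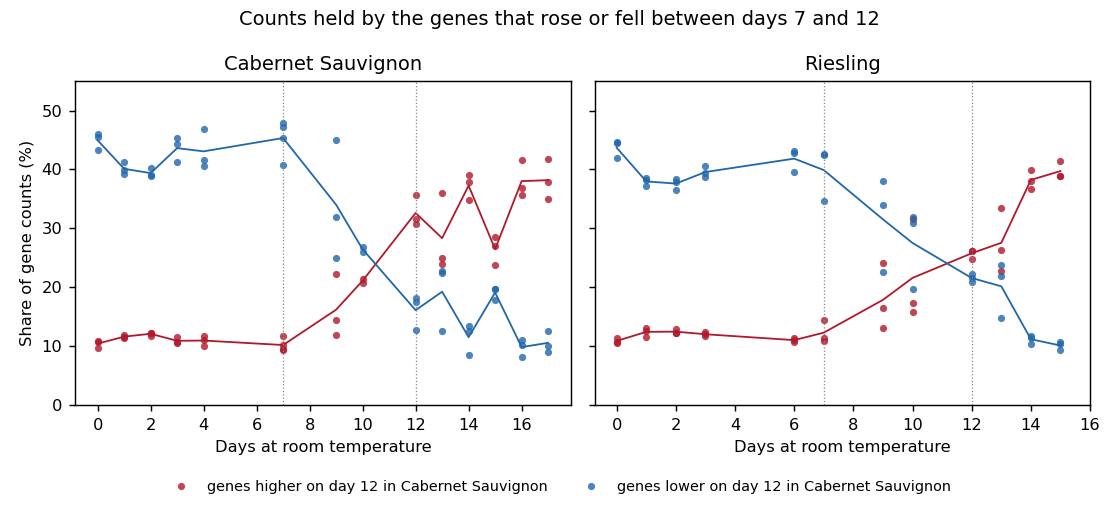
The share of gene counts held by the 4638 genes that rose (red) and the 3688 that fell (blue) between days 7 and 12 in Cabernet Sauvignon is plotted against days at room temperature for every library in the fits, with lines through the day means; the right panel shows the same genes in Riesling. In Cabernet Sauvignon the red share goes from a mean of 10.2% on day 7 to 32.6% on day 12 and the blue share from 45.3 to 16.1%.

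Comparisons that share no library with days 7 and 12 were read for the same genes. Between days 13 and 17, 1410 of 21035 genes changed (6.70%), with 406 higher (1.93%) and 1004 lower (4.77%; edgeR, adjusted p under 0.05). Of the 4638 genes that had risen by day 12, 240 rose from day 13 to day 17 (5.17%) and 1 fell. Their median log2 fold change was 0.53. Of the 3688 that had fallen, 740 fell from day 13 to day 17 (20.1%) and 8 rose, with a median of -0.64, against 0.02 over all genes tested. Day 13 lay nearer to day 7 than day 12 did, so these changes cannot be read as changes beyond day 12 alone. Day 17 was not tested against day 12. The mean of the library medians, as change from day 7, was 1.62, 1.36 and 1.97 on days 12, 13 and 17 for the genes that rose. For those that fell it was -1.22, -1.04 and -1.50. With only the libraries of days 13 and 17 in the fit, 0 genes passed and 3654 had an unadjusted p under 0.05. Between days 9 and 10, 113 genes changed (0.537%), 109 higher (0.518%) and 4 lower (0.0190%). Of these, 104 were among those that rose by day 12 and 4 among those that fell. That count was also 0 with only the libraries of those days, with 479 at an unadjusted p under 0.05.

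The move from day 0 to day 1 changed 4951 genes (23.5%; edgeR, adjusted p under 0.05), 2478 higher (11.8%) and 2473 lower (11.8%). Of the genes that rose by day 12, 488 were higher on day 1 (10.5%) and 383 lower (8.26%), against 11.8% of genes tested in each direction. Of those that fell by day 12, 475 were higher (12.9%) and 694 lower (18.8%), the latter in the direction of their later fall. Whether these shares differ from those of the later days was not tested. Among the 4638, 1358 had their highest day mean on day 17, 1304 on day 16 and 847 on day 14. Among the 3688, 1256 had it on day 0 and 1021 on day 7. The choice of genes on days 7 and 12 bears on these counts. By that choice, 0 genes that rose had it on day 7 and 0 that fell had it on day 12. The counts were not made over all genes tested, so nothing is read from them.

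Measures of how far gene counts were concentrated in few genes did not pass a test between the days. The 10 most abundant genes of each library, which need not be the same genes on both days, held 10.3, 13.6, 13.6 and 13.3% of gene counts in day 7 replicates 1, 2, 3 and 5, and 5.65, 2.55 and 5.19% in day 12 replicates 1, 2 and 3. The number of genes that together held 50% of gene counts was 1107 ± 81.0 on day 7 (SD, n = 4) and 1590 ± 262 on day 12 (SD, n = 3). The expected number of genes with a count at a depth of 200000 was 15184 ± 133 on day 7 (SD, n = 4) and 16490 ± 220 on day 12 (SD, n = 3). For each of these 3 measures the groups did not overlap. Each gave p = 0.0571 in an exact two-sided permutation test, the smallest that 4 against 3 libraries allow, and 0.0686 after adjustment over the 6 measures tested. The share of records that aligned to more than 1 place, 10.7 to 60.6% on day 7 and 8.35 to 10.5% on day 12, moved with them, and its part in the result was not tested.

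**Figure D4:**
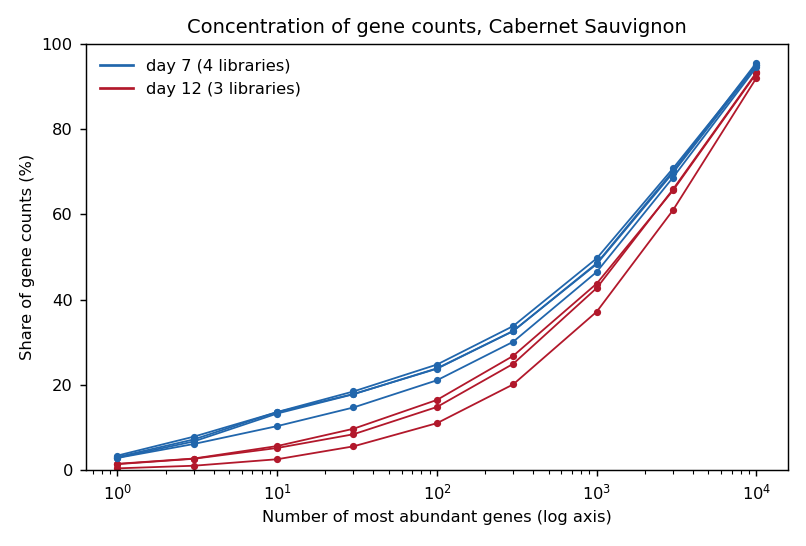
The share of gene counts held by the most abundant genes of each library, in percent, is plotted against the number of genes summed on a log axis, with blue lines for the 4 day 7 libraries and red lines for the 3 day 12 libraries. At 10 genes the blue lines stand at 10.3 to 13.6% and the red lines at 2.55 to 5.65%.

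Levels taken from day 4, which entered no contrast above, divided the genes by direction. Of the 51 genes with a mean of at least 1000 CPM on day 4, 0 rose and 36 fell between days 7 and 12 (70.6%). Of the 2114 genes from 100 to 1000 CPM, 11.9% rose and 40.2% fell. Of the 10047 genes from 10 to 100 CPM, 17.2% rose and 22.5% fell. Among 6190 genes from 1 to 10 CPM the shares turned to 25.04% and 8.08%, and among 2633 genes under 1 CPM to 42.0% and 1.56%. Genes at the low end pass the expression filter through days on which they are higher, so their share of rises carries no weight. The 50 most abundant genes of day 4 are nearly the same genes as the 51 above, so their counts add no separate result. They held 19.0% ± 1.73 of gene counts on day 7 (SD, n = 4) and 6.68% ± 1.83 on day 12 (SD, n = 3). Of these 50, 0 rose and 35 fell (70%), against 22.0 and 17.5% of all genes tested. The 50 most abundant genes of day 16 held 4.24% ± 0.337 on day 7 (SD, n = 4) and 8.03% ± 3.05 on day 12 (SD, n = 3). Of those, 22 rose (44%) and 3 fell (6%), and 11 genes were in both lists. Day 4 lies before day 7 and day 16 after day 12. Choosing genes for a high level on day 4 therefore favours falls, and on day 16 rises. How far that choice made these shares, and those of the genes above 100 CPM, was not tested.

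Riesling gave the same comparison in libraries of its own, 3 on each day. There 4332 of 20305 genes changed (21.3%; edgeR, adjusted p under 0.05). That count was 2780, 2229 and 2595 without day 7 replicate 2, day 7 replicate 3 and day 12 replicate 1. Of 19815 genes tested in both cultivars, 4503 rose in Cabernet Sauvignon and 2135 of these rose in Riesling, which is 47.4% of the first list and 88.7% of the 2408 in the second. Over all 19815 genes, 12.2% rose in Riesling and 9.51% fell. Of 3626 that fell in Cabernet Sauvignon, 1513 fell in Riesling, 41.7% of the first list and 80.3% of 1884 in the second. Opposite calls were made for 2 genes. Across genes, which are not independent replicates, Pearson's r of the log2 fold changes was 0.857 and Spearman's rho 0.830. The slope of Riesling on Cabernet Sauvignon was 0.636. Records outside genes made up 14.1, 12.8 and 14.6% in Riesling day 7 replicates 1, 2 and 3. They made up 28.9, 13.5 and 31.5% in those of day 12, a split by replicate like that of Cabernet Sauvignon. The part of that share in the overlap was not tested.

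**Figure D5:**
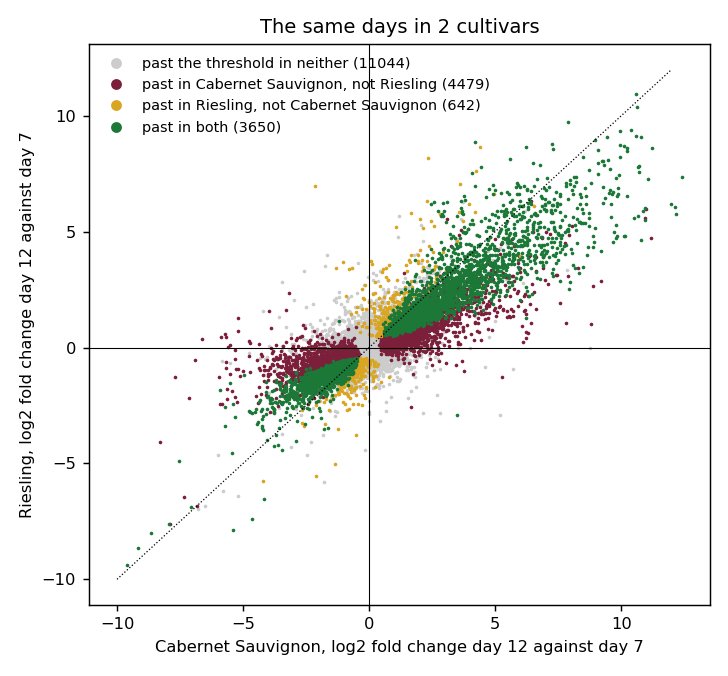
Each point is a gene tested in both cultivars, with its log2 fold change from day 7 to day 12 in Cabernet Sauvignon on the horizontal axis and in Riesling on the vertical axis; the dotted line marks equal change. Green points, past the threshold in both, number 3650, and those past it in Cabernet Sauvignon but not Riesling number 4479.

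A threshold passed in one cultivar and missed in the other does not show a difference, so the difference was tested itself. The change from day 7 to day 12 differed for 7 of 19005 genes (0.0368%; edgeR interaction, adjusted p under 0.05), and 1992 had an unadjusted p under 0.05. For 5 genes (0.0263%) the change was more positive in Cabernet Sauvignon, by 2.32 to 7.66 on the log2 scale, and for 2 (0.0105%) it was more negative, at -3.87 and -2.49. The gene with the largest difference went from 0, 0, 0 and 0.445 CPM in day 7 replicates 1, 2, 3 and 5 to 52.2, 79.0 and 104 CPM in day 12 replicates 1, 2 and 3. Its log2 fold change in Riesling was 1.03 ± 0.43 (SE; edgeR, adjusted p = 0.0829). The number of genes called was not stable, at 2 to 153 when single libraries were left out, with 153 without Cabernet Sauvignon day 7 replicate 1, and 233 with no filter on low counts.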

How the data were processed

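The deposited files hold whole-number counts per gene for each library. Per the submitters' processing notes, cutadapt, STAR, HTSeq and DESeq2 were used; the genome build, annotation and strand setting are not given in the sources used here. RNA came from whole buds by a plant column kit, per the labels' protocols. The 5 bookkeeping rows were left out of library sizes and tests, and reads of near-identical genes may have been lost or split. Counts of 42 Cabernet Sauvignon libraries from 14 days were fitted with edgeR 4.0.16 in R 4.3.3 (TMM, its expression filter, day as a factor). Days 5, 6, 8 and 11 were left out because they carry Riesling markers or mixed libraries, and pairs with a biological coefficient of variation under 0.09 were summed. Riesling was fitted alike, but with day 6 kept and days 4, 5, 8 and 11 left out. Its libraries of days 5, 8 and 11 carried Cabernet Sauvignon markers. The difference between the cultivars was fitted on the libraries of days 7 and 12 only. CPM of genes use the library sizes scaled by TMM, and the floors use unscaled gene counts. SEs come from the F statistic. The members, lists and tests were chosen with earlier results of these data known. Of 5140 genes past the threshold with groups that did not overlap, a mean of at least 8 CPM and at least 10 counts on the lower day, the 2 largest and 2 smallest changes were named. Cultivar markers needed at least 20 CPM in one cultivar and at most 0.5 CPM in the other; this gave 0 and 2 genes, so a looser rule (at least 5 CPM and 10-fold apart), chosen after seeing the data, gave 6 and 10. On simulated counts for the comparison of days 12 and 7, 79 of 104 genes changed 4-fold and 14 of 96 changed 2-fold were recovered among 21035, with 0 false calls. For the difference between the cultivars, 33 of 96 changed 4-fold and 5 of 104 changed 2-fold were recovered among 19005, with 2 false calls. In each simulation 200 genes changed, all other means were equal on every day, and the biological coefficient of variation was 0.3 for every gene. The data differ, with 0.562 in a pair of day 9 and 8326 genes called, so the false calls cannot be carried over to them. DESeq2 1.42.0 was an alternative, and exact permutation tests used SciPy 1.17.1. Same-numbered libraries of days 7 and 12 were checked for shared deviations.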

Additional observations from a re-analysis of the deposited data

Results flagged for a closer look

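Of 14 sets of 4 day 7 values, 5 had 1 library far from the other 3; a share of such flags arises by chance. Replicate 2 stood apart by its share of records outside genes, 9.31%, its share aligned to more than 1 place, 60.6%, and its level of Vitvi07g00352, 7.38 CPM from 2 counts. The first share is of a total that holds the second, which lowers it. Against gene counts it was not low, with 81832 records outside genes beside 263961 gene counts. Replicate 1 had 1222083 beside 6165447. Replicate 1 stood apart by the share held by its 10 most abundant genes, 10.3%, and by the expected number of genes at a common depth, 15383. For 7 genes, Cabernet Sauvignon and Riesling differed in how far they moved between these days. In 6 libraries labelled Cabernet Sauvignon of days 8 and 11, the Riesling share of cultivar markers was at least 99.3%, against at most 0.518% on days 9 and 10. Those 6 libraries were left out of the main fits. They entered only an alternative fit with all days, in which 8419 genes passed between days 7 and 12.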

How the results depend on the processing

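The count of 8326 genes became 3209 with a 4-fold minimum and 3367 with libraries of at most 25% of records outside genes. Under the other alternatives it ran from 5993, without day 12 replicate 3, to 8647 with DESeq2, and it was 7149 with day 7 replicates 3 and 5 summed, an alternative chosen after seeing the data. Without libraries under 1000000 gene counts, 51.5% of 8083 calls were higher, against 55.7%. All 72 values of the 4 named genes kept their direction and side of the threshold (edgeR or DESeq2). The 4 genes were chosen for extreme changes in these same libraries, which favours that outcome. The 207 nearly silent genes became 210 without day 7 replicate 2 and 227 without day 12 replicate 1. With only the libraries compared, day 17 against 13 and day 10 against 9 gave 0 calls by edgeR. Riesling gave 2229 to 3736 with single libraries left out. The 7 interaction genes became 233 with no filter, 13 with the share outside genes as a covariate, 3 with all days except 4, 5, 6, 8 and 11, 3 with replicates 3 and 5 summed, and 2 to 153 with single libraries left out. Same-numbered libraries of days 7 and 12 shared little of their deviations (correlations -0.12, 0.04 and 0.05). So few libraries cannot decide whether they were paired. Under a replicate block, 6858 genes passed between days 7 and 12, and 2 in the interaction. Depth limits genes under 11.4 CPM in day 7 replicate 2.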

Other observations

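Among the 4638 genes that rose, day 12 replicate 3 was the highest day 12 library for 58.7%, against 35.9% of all genes tested. Among the 3688 that fell, it was the lowest for 47.7%, against 29.96%. Day 7 replicate 1 was the highest day 7 library for 48.7% of the genes that rose, against 34.2% of all genes tested. Both groups of genes were chosen with these same libraries, and the part of that choice in these shares was not tested.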
